A study of Mus musculus with 76 samples.

Results

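The libraries described here are the 8 pieces of extraembryonic ectoderm (ExE) from Ezhip maternal knockout (matKO) mouse conceptuses at embryonic day 6.5, divided by their content of Col3a1 RNA, which encodes the chain of type III collagen, a collagen of connective tissue stroma. The Col3a1 count of each library was divided by the library total and multiplied by 1000000 (CPM), and the 4 libraries with the highest values were set against the 4 with the lowest. The 8 libraries are part of 76 in the series, which profiled polyadenylated RNA of single oocytes, embryos or pieces of tissue, wild type (WT) or matKO, over 4 stages. MatKO means that the mother was without Ezhip, whose protein inhibits PRC2, the Polycomb complex that methylates histone H3 at lysine 27. The genotype of the embryos beyond that word, the strain, the father and the litter are not stated in the sources used. The 4 Col3a1-high libraries are matKO female 4, female 5, male 1 and male 2. The 4 Col3a1-low libraries are matKO female 3, female 1, female 2 and male 3. The 10 WT ExE libraries of the same stage, 6 female and 4 male, took no part in the choice.

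At this stage the ExE is a column of trophoblast stem and progenitor cells between the epiblast, which forms the embryo proper, and the ectoplacental cone, which gives rise to invading trophoblast and giant cells. A layer of visceral endoderm wraps the column, and parietal endoderm lies outside it on a thick basement membrane of laminins and type IV collagen. The whole conceptus sits in the decidua, the remodelled stroma of the mother's uterus, which makes fibrillar collagens and holds maternal vessels and blood. A piece of dissected ExE can thus carry RNA of several neighbouring tissues, and each has marker genes of its own.

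Promoter windows of 3 genes are shown. The libraries are set apart by the first gene. The others belong to the adult globins, markers of maternal-type red blood cells, whose levels differed widely between single libraries. The windows come from RefSeq annotation on build GRCm38.p6, run 5′ to 3′ on the strand of the gene, and end at the base before the RefSeq start. Capitals mark the motif TATAAA, which resembles a TATA box. They also mark CCAAT, the letters of the CCAAT box. The last motif in capitals is GATAAG, the letters that GATA factors prefer. Each was searched on both strands, and no match overlaps another. Of 32851 windows of 250 bases in the same table, 12.4% hold TATAAA, 33.8% hold CCAAT and 6.55% hold GATAAG. A match is a description of letters and no evidence of a bound factor.
Col3a1, chr1:45311288-45311537, plus strand: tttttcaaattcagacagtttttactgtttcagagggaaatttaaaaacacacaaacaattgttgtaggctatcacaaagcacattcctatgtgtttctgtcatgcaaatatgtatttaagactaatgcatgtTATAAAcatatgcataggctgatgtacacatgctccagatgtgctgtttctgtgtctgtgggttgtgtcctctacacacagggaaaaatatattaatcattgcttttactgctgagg
Hba-a1, chr11:32283422-32283671, plus strand: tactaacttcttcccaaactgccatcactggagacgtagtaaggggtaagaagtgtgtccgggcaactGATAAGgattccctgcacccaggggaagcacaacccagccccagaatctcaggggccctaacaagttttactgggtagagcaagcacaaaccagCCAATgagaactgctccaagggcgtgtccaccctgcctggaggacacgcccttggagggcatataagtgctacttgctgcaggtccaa
Hbb-bs, chr7:103827929-103828178, minus strand: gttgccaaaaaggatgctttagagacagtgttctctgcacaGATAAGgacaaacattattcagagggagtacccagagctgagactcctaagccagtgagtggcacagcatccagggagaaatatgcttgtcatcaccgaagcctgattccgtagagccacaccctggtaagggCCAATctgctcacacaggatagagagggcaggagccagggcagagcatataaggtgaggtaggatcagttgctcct
Both globin windows hold 1 CCAAT and 1 GATAAG on the strand of the gene, with the GATAAG first, at 182 bases before the start of Hba-a1 and 209 before that of Hbb-bs. The Col3a1 window holds neither, and its single TATAAA begins 117 bases before the start.

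Library totals ran from 5596891 to 19042840 counts on the Col3a1-high side, from 2736211 to 26674539 on the Col3a1-low side and from 4928566 to 20735615 in WT. Mean totals of the sides were 13391035 and 11739036 counts (exact permutation test, two-sided, p = 0.771) and mean identifier numbers 62 and 60 (exact permutation test, p = 0.543). With 4 against 4 libraries the smallest p this test can give is 0.0286. The Col3a1-high side has 2 females and 2 males and the Col3a1-low side 3 females and 1 male (Fisher's exact test, p = 1), and all 3 adjusted p-values were 1. Ezhip itself, listed in the files as AU022751, was near the limit of detection in ExE, at 0 to 0.548 CPM on the Col3a1-high side, 0 to 0.665 CPM on the Col3a1-low side and 0 to 1 CPM in WT, so it checks no genotype label here. All matKO ExE libraries share 1 identifier prefix and all WT ExE libraries another, so genotype and prefix cannot be told apart. Labels do not say whether libraries of a group came from separate litters. P-values therefore measure only the spread between these libraries, which may be partly technical.

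Col3a1, on chromosome 1 from 45311538 to 45349706 (mm10, plus strand), had 331 counts or 25.9 CPM in matKO female 4 (95% Poisson interval 23.2 to 28.8), 59 counts or 10.5 CPM in female 5 (8.03 to 13.6), 94 counts or 4.94 CPM in male 1 (3.99 to 6.04) and 25 counts or 1.55 CPM in male 2 (1.00 to 2.29). On the other side, female 3 had 2 counts, at 0.148 CPM (0.0179 to 0.534), and female 1, female 2 and male 3 had none. A count of 0 allows up to 1.10 CPM in female 1, 0.1125 CPM in female 2 and 0.746 CPM in male 3, taking 3 counts as the limit. The intervals cover counting error only. The range within the high side was thus far wider than the step across the boundary, between male 2 at 1.55 CPM and female 3 at 0.148 CPM. WT libraries reached 1.30 CPM in WT female 6, and 6 of the 10 had no Col3a1 count. Male 2 sits so close to that level that the words stroma-rich and stroma-poor describe the sides unevenly, and the sides are named here by the value that defined them.

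**Figure D1:**
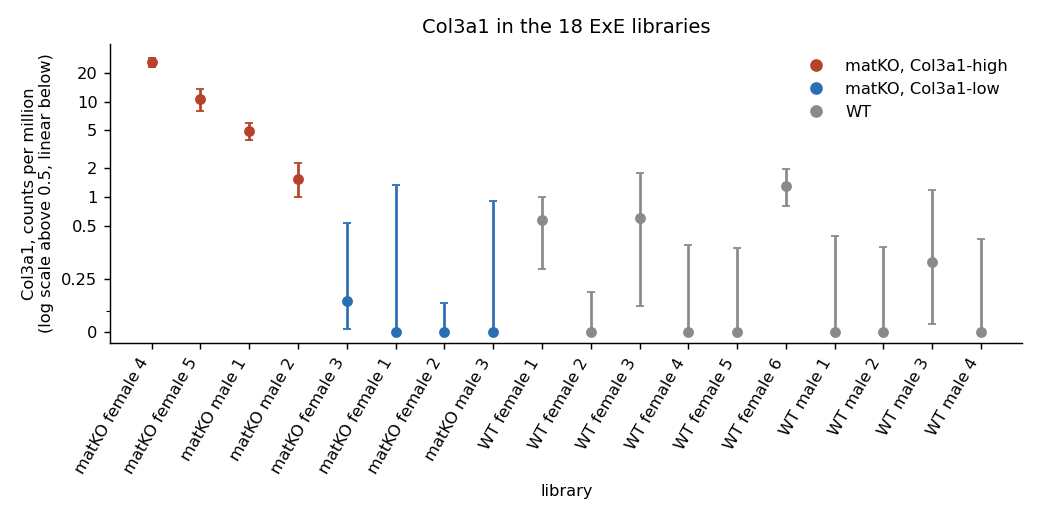
Col3a1 in CPM, unscaled, in each of the 18 ExE libraries (points, with exact 95% Poisson intervals as bars; the axis is logarithmic above 0.5 and linear below). The 4 Col3a1-high libraries run from 25.9 down to 1.55 CPM, and the lowest of them lies beside WT female 6 at 1.30 CPM.

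All other levels below are CPM scaled by the trimmed mean of M-values (TMM). Differences between the sides are means of log2 CPM, with a prior count of 2 added, Col3a1-high minus Col3a1-low. Because the sides were chosen by a measured gene of these same libraries, these differences are a description and carry no test. Of 12494 genes that averaged 1 CPM or more, besides Col3a1, 89 were higher and 57 lower on the Col3a1-high side by at least 2-fold with all 4 libraries of one side beyond all 4 of the other. These are 0.712% and 0.456% of the genes, 1.17% in either direction. The median difference over all genes was 0.10. The division into higher and lower depended on scaling, with 63 and 52 genes in plain CPM and 62 and 76 with DESeq2 size factors, that is 61% higher with TMM, 54.8% and 44.9%. A library that differs in such a comparison may hold fewer cells of a type or less RNA per cell, and bulk counts cannot tell these apart.

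Stromal matrix genes are described first, since Col3a1 is one of this class. Of 16 such genes other than Col3a1 itself, 14 could be compared, 13 were higher on average on the Col3a1-high side, and the median difference was 2.44. All 14 averaged 1 CPM or more on the Col3a1-high side but only 6 on the Col3a1-low side, so the other 8 passed the filter on low values through the high side and had to be higher there. The count and the median are therefore a description only. Only 3 of the 14 met the rule of no overlap, Dcn, Col6a1 and Col1a1, all higher. The count was 6 without male 2, 5 without female 1 and 5 without female 2. Over all 12494 genes the higher ones rose as well, from 89 to 313, 134 and 359 in the same order. Fewer libraries on a side part more easily by construction. Dcn, which encodes decorin, a proteoglycan that binds collagen fibrils, stood at 37.4, 3.17, 2.28 and 0.339 CPM in female 4, female 5, male 1 and male 2, whereas the Col3a1-low side had 1 Dcn count in all. Col6a1, a chain of the beaded type VI collagen, stood at 12.1, 2.77, 2.99 and 1.86 CPM in the same order, against 0.0926 CPM in female 3, 0.408 CPM in female 2 and 0 in the remaining pair. Female 4 led both genes by a wide margin, and male 2 was last.

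Col1a1, a chain of type I collagen, had 87.1, 50.9, 19.1 and 18.1 CPM in female 4, female 5, male 1 and male 2. The Col3a1-low libraries had 4.44 CPM in female 3, 3.85 in female 1, 14.6 in female 2 and 15.3 in male 3. The sides differed by 2.13 on the log2 scale, and male 2 and male 3 lay so close that the rule was not met in plain CPM. Its partner chain Col1a2 overlapped, since male 3 at 3.52 CPM exceeded male 2 at 2.46 CPM, while female 4 reached 47.6 CPM. Col6a2 overlapped for the same reason, with 0.932 CPM in male 2 and 1.58 CPM in female 2. Lum, which encodes lumican, had 139 counts over the Col3a1-high side, led by female 4 at 9.42 CPM, and none on the other side. Mmp2, a gelatinase, was the exception in sign, at -0.79, with 16.1, 8.51, 0.0585 and 1.02 CPM on the high side and 7.41, 3.53, 0.766 and 13.1 CPM in female 3, female 1, female 2 and male 3. The summed level of the 16 genes was 334 CPM in female 4, 136 in female 5, 130 in male 1 and 34.6 in male 2, against 24.3 to 48.6 CPM on the Col3a1-low side and 9.74 to 113 CPM in WT, with a WT median of 24.8 CPM. By the summed list male 2 therefore lay within the Col3a1-low range.

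Enzymes and chaperones of collagen assembly showed a smaller difference. Of 14 compared, 13 were higher on the Col3a1-high side, the median was 1.13, and only P4ha1 did not overlap. Without male 2 the count was 6 and without female 2 it was 4, where 313 and 359 of all 12494 genes were higher. Without the 2 shallowest libraries the median was 0.59. P4ha1, a catalytic subunit of collagen prolyl hydroxylase, had 95.3, 63.3, 149 and 37.3 CPM in female 4, female 5, male 1 and male 2, and 17.6 to 36.6 CPM in the other 4, and it did not meet the rule in plain CPM or with DESeq2 size factors. Serpinh1, the collagen chaperone HSP47, had 853, 477, 1850 and 252 CPM against 174 to 285 CPM, so male 2 overlapped. Colgalt1, which puts galactose on collagen, had the widest average difference at 2.95, with 172 CPM in male 1, but female 2 of the low side held 60.3 CPM and female 1 only 0.321 CPM. For these genes male 1, not female 4, was the highest library, as it was for the parietal endoderm genes described below. Creb3l1, a membrane-bound transcription factor of the endoplasmic reticulum that acts on secretory and collagen genes, did not overlap, with 41.5, 37.8, 87.5 and 52.7 CPM against 10.3 to 24 CPM. All 4 Col3a1-high values of Creb3l1 lay above the highest WT library at 35.4 CPM.

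Regulators and products of the uterine stroma and decidua followed female 4 more than the side as a whole. None of 13 compared genes parted the sides, although 12 were higher on average and the median was 1.76. Of the 13, 9 averaged 1 CPM or more on the Col3a1-low side, so the other 4 passed the filter through the high side. The count was 3 without male 2 and 3 without female 1, where 313 and 134 of all 12494 genes were higher. Tdo2, a tryptophan-degrading enzyme of decidual cells, had 118 CPM in female 4, 47.7 in female 5, 11.6 in male 1 and 4.57 in male 2, against 1.28 to 6.94 CPM. Hoxa10, a homeobox gene needed for decidualization, had 50.2 CPM in female 4 and 8.31 in female 5, but 2.87 and 3.90 in male 1 and male 2, within the 1.76 to 5.78 CPM of the low side. Aldh1a2, a retinoic acid enzyme, and Hoxd10 had 15.3 and 13.1 CPM in female 4 and at most 1.76 CPM in each other matKO library. Without female 4 the median was 1.11. Pgr, the progesterone receptor, had 7.98 CPM in female 4, 2.18 in female 5, 0 in male 1 and 0.169 in male 2, and 0.251 to 1.02 CPM on the low side.

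The summed decidual list had its highest value, 1020 CPM, in a Col3a1-low library, female 2, most of it from 1 gene. Prl8a2, a prolactin relative made in decidua and listed here as such, had 972 CPM in female 2, against 66.7 to 285 CPM on the high side. Htra3, a secreted protease of decidua, was likewise at 24.6 CPM in female 2 and at most 1.36 CPM elsewhere. Female 2 had no Col3a1 count among its 26674539. Levels of the stromal matrix and of these products therefore did not move together in every library. Female 2 was also the highest library for differentiated trophoblast genes, with a summed 9080 CPM. Which tissue the Prl8a2 and Htra3 RNA came from was not tested.

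Genes of vessel walls gave mixed values. Only 3 of 10 pericyte and smooth muscle genes could be compared, and none parted the sides. Des, the muscle filament desmin, had 237, 77.0, 31.4 and 22.4 CPM in female 4, female 5, male 1 and male 2, and 5.14 to 27.2 CPM in the other 4. Acta2, smooth muscle actin, had 21.7 and 9.90 CPM in female 4 and female 5 and at most 1.58 CPM in each other matKO library. Notch3, a receptor of mural cells, went the other way, at -1.20, with 1.20, 0, 0.410 and 0.762 CPM on the high side and 3.89, 2.89, 0 and 1.51 CPM in female 3, female 1, female 2 and male 3. Endothelial genes did not follow the split, with a median of 0.10 over 7 genes. Pecam1, an adhesion protein of endothelium, was lowest in male 1 at 2.22 CPM and highest in female 2 at 53.8 CPM, from opposite sides. Esam, an adhesion protein of endothelial junctions, had 76.8 and 91.0 CPM in female 5 and female 2, again from both sides.

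Blood genes ran across the split, not with it. The 4 adult globin genes were the tested members of the red cell list, and none parted the sides. Summed over 7 listed genes, the level was 170 CPM in female 4 and 131 in male 2, but 2.37 in female 5 and 4.10 in male 1. On the Col3a1-low side it was 291 CPM in female 1, 82.8 in female 2 and 358 in male 3, but 2.13 in female 3. Globin RNA was thus high in 5 of the 8 libraries, 2 from the high side and 3 from the low side, and low in the other 3. The median of the globin genes was -1.73, but it was 0.56 without female 1 and male 3, the 2 shallowest libraries, and -0.79 (without female 5) to -3.19 (without female 3) when 1 library was left out, so no direction is read from it. Hba-a1 alone had 49.6, 0.396, 0.761 and 39.6 CPM on the high side and 1.57, 96.0, 16.6 and 129 CPM in female 3, female 1, female 2 and male 3. WT libraries held between 0.0994 and 32.0 CPM of the list. Hba-a1 and Hba-a2, and likewise Hbb-bs and Hbb-bt, are near-identical copies whose single values are uncertain. Embryonic globins, made in yolk sac red cells, gave no gene that passed the filter and summed to at most 0.278 CPM in any matKO library, against up to 13.8 CPM in WT.

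Leukocyte genes were scarce. Of 14 myeloid genes 5 could be compared, with a median of 0.18 and summed levels of 13.3 to 33.3 CPM on the high side and 12.3 to 46 CPM on the low side. Among 9 genes of uterine natural killer cells, Nkg7 and Il2rb could be compared, and the list summed to 1.81 to 9.42 CPM against 0 to 8.02 CPM, with 0 in female 3 and male 3. Uterine epithelium could be judged from Foxa2 and Muc1 alone, which differed by 0.76 and -0.35. Ltf, Lcn2 and Pigr were below the filter.

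No listed trophoblast gene parted the libraries by Col3a1 either. All 16 genes of ExE and trophoblast stem cells were measured. Of these, 4 were higher on average on the Col3a1-high side and the rest lower, with a median of -0.20. The median was -0.54 without the 2 shallowest libraries and 0.12 without male 1. Their summed level was 2520, 2660, 1740 and 4810 CPM in female 4, female 5, male 1 and male 2, and 5450, 2220, 4300 and 1980 CPM in female 3, female 1, female 2 and male 3. Esrrb, a nuclear receptor of trophoblast stem cells, had 15.1, 6.53 and 17.7 CPM in female 4, female 5 and male 1 but 176 CPM in male 2. On the low side it had 153 CPM in female 3, 51.4 in female 1, 2.76 in female 2 and 77.7 in male 3. Bmp4, a signal from the ExE to the epiblast, had 5.91, 3.56 and 16.9 CPM in the same first 3, 69.5 CPM in male 2 and 134 CPM in female 3. Female 4, female 5, male 1 and female 2 thus lay below the lowest WT library of Esrrb, 28.5 CPM. Elf5, a defining transcription factor of the ExE, was nevertheless present in all, at 25.1 CPM in male 1 and 67.1 to 200 CPM in the other 7, so the labelled tissue was represented in each.

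Genes of the ectoplacental cone, giant cells and other differentiated trophoblast had a median of 0.14 over 12 genes, which ran from -0.71 without male 3 to 0.91 without female 2. They were highest in female 2, with a summed 9080 CPM, against 669 to 3050 CPM on the Col3a1-high side and 642 to 1980 CPM in the other 3 low libraries. Prl3d1, placental lactogen I of giant cells, had 22.1, 245, 13.5 and 280 CPM on the high side and 834 CPM in female 2, but 0.754 CPM in male 3. Phlda2, an imprinted growth regulator of the placenta, reached 4750 CPM in female 2 and 173 to 1440 CPM in the others. Tpbpa, the marker of ectoplacental cone and later spongiotrophoblast, was at most 1.93 CPM outside female 2, where it was 7.91 CPM. Proliferation genes were flat, with a median of -0.01 over 11.

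Basement membrane genes of the parietal endoderm were higher in 3 of the 4 Col3a1-high libraries. All 8 were measured, all 8 were higher on average, and the median was 1.81, but none parted the sides. Lama1, a laminin chain, had 864, 636 and 2400 CPM in female 4, female 5 and male 1 and only 32.2 CPM in male 2. The low side had 28 CPM in female 3, 326 in female 1, 405 in female 2 and 39.2 in male 3. Col4a2, a chain of type IV collagen, had 906, 691 and 3350 CPM in the first 3, 224 CPM in male 2, and 191 to 416 CPM on the low side. Its neighbour Col4a1 is transcribed from the opposite strand of chromosome 8, with 20 bases between the annotated starts, and it differed less, by 1.24 against 1.70. Without male 2, 6 of the 8 genes did not overlap, so the count depended on that library. Over all 12494 genes the higher ones then rose from 89 to 313, since fewer libraries part more easily. Male 1, the highest library for each of Lama1, Lamb1, Col4a1, Col4a2 and Sparc, also led the visceral endoderm genes, with a summed 14800 CPM against 1730 to 6100 CPM in the other 7. Of 13 visceral endoderm genes 11 were higher on average, with a median of 0.73, and 1 did not overlap. Without male 1 the median was 0.20 and no gene met the rule. Without female 4 the count was 4, where 180 of all 12494 genes were higher. The single gene was Gata4, a transcription factor of the primitive endoderm lineage, at 301, 236, 552 and 247 CPM against 128 to 189 CPM. Gata4 did not meet the rule in plain CPM or with DESeq2 size factors.

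Epiblast and early mesoderm genes went the other way. All 10 compared were lower on average on the Col3a1-high side, with a median of -2.86, and none parted the sides. Only 5 of the 10 averaged 1 CPM or more on the Col3a1-high side, so the other 5 passed the filter through the low side. Without the 2 shallowest libraries the median was -0.89. Tdgf1, a Nodal co-receptor of the epiblast, had 0, 0, 0.351 and 2.37 CPM on the high side, and 42.5, 18.3 and 29.7 CPM in female 3, female 1 and male 3, but 0.0511 CPM in female 2. Nanog, a pluripotency factor, had at most 2.29 CPM on the high side and 0 in female 2, and 10.2 to 30.8 CPM in the other 3. Otx2, an epiblast and anterior gene, had at most 1.61 CPM on the high side, 37.9 to 65.1 CPM in those 3 and 0 in female 2. Female 2 thus stood with the Col3a1-high libraries. Without female 2, 6 of the 10 genes did not overlap and the median was -4.57. Over all 12494 genes the lower ones then rose from 57 to 391, so the count is a description only. WT libraries were also divided for these genes, with Nanog at 0 to 0.699 CPM in 4 of them and 2.48 to 41.6 CPM in the other 6.

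**Figure D2:**
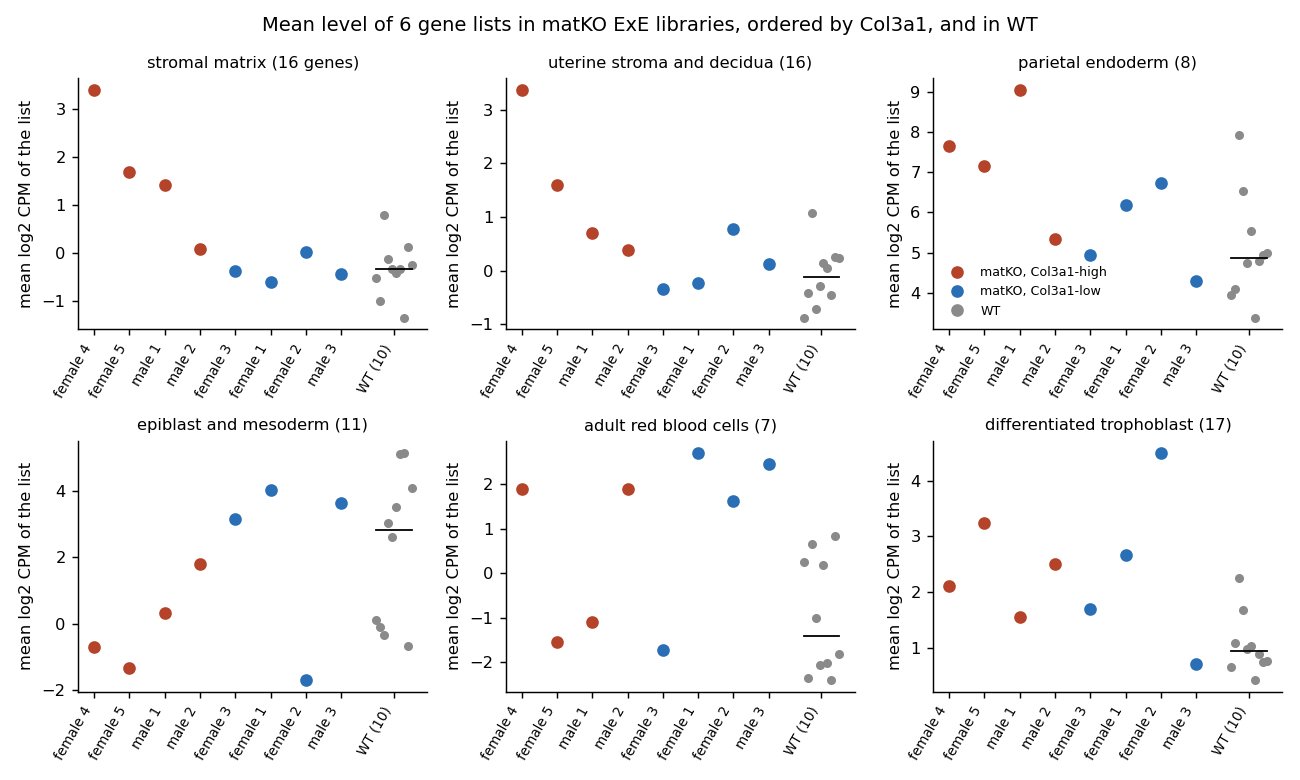
Mean log2 CPM of 6 gene lists, 1 panel each, in the 8 matKO libraries ordered from the highest to the lowest Col3a1 and in the 10 WT libraries (grey points, with the median as a line). Stromal matrix genes fall from 3.40 in female 4 to 0.09 in male 2, red cell genes are split on both sides, and female 2 is lowest for epiblast genes at -1.70 and highest for differentiated trophoblast at 4.51.

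Among genes outside these lists, Gng3 and Jade2 were lower on the Col3a1-high side by the widest margins, -4.29 and -3.41. Gng3, a G protein subunit best known from neurons, had 0, 0.792, 0 and 0.847 CPM in female 4, female 5, male 1 and male 2, and 17.6, 8.03, 1.33 and 20.4 CPM in female 3, female 1, female 2 and male 3. Jade2, a subunit of histone acetylating complexes, had 0.117 to 1.98 CPM against 5.05 to 15.7 CPM. Plxnb1, a semaphorin receptor, had 1.95 to 3.51 CPM against 8.80 to 17.7 CPM. These 3 genes met the rule in plain CPM and with DESeq2 size factors. They also met it without any 1 library. Leaving out a library cannot make parted sides overlap, so only the 2-fold limit could fail there.

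Snrpn and Ndn, both imprinted and expressed from the father's copy, were lower on the Col3a1-high side. Snrpn, which encodes a splicing protein, lies on chromosome 7 from 59982495 to 60140219 on the minus strand. It had 11.3, 21.2, 7.38 and 15.2 CPM on the high side and 77.9, 73.2, 46.2 and 83.0 CPM on the low side, a difference of -2.40. Ndn, which encodes necdin, lies at 62346569 to 62350262 of the same chromosome and had 3.05 to 7.9 CPM against 9.91 to 30.8 CPM. Snhg14, the long RNA that hosts small nucleolar RNAs, lies next to Snrpn, from 59307924 to 59975759, and had 1.98 to 8.86 CPM against 9.45 to 21.8 CPM. Snrpn overlaps Snurf, listed at 0 in all 8, and Snhg14 meets Ube3a on the opposite strand, so without a stated strand setting their reads may be shared. All 4 Col3a1-low libraries had more Snrpn than the highest WT library, 34.4 CPM, whereas all 4 Col3a1-high libraries lay within the WT range of 6.71 to 34.4 CPM. For Ndn and Snhg14 the WT ranges, 4.86 to 24.7 and 4.10 to 66.8 CPM, spanned most of both sides. Of the 13 genes on the canonical imprinted list only Snrpn parted the sides, and the list median was 0.38. Ndn and Snhg14 are not on that list and met the rule as well, Snhg14 not in plain CPM. The imprinted RNA Airn, also outside the list, met it as higher, but not in plain CPM.

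The noncanonical imprinted genes, whose imprints rest on maternal H3K27me3, gave 0 of 8 genes under the rule and a median of 0.32. Without the 2 shallowest libraries the median was -0.07. Gab1, a signalling adaptor of the placenta, had 406, 573, 470 and 533 CPM on the high side and 333 to 385 CPM on the low side, so its sides did not overlap, but the difference of 0.46 was under 2-fold. Sfmbt2, a Polycomb-related gene of trophoblast, had 173 to 224 CPM against 91.5 to 192 CPM. Xist, the RNA of the inactive X, was 13.8 and 10.2 CPM in the Col3a1-high males and 399 CPM in male 3 of the low side, beside 36.1 to 226 CPM in the 4 WT males. Male 3 carried Y-linked RNA as well, with a summed 61.9 CPM over 4 genes.

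Pigf, Focad, Dpep1 and Cxcl14 were among the genes with the widest differences upward. Pigf, an enzyme of the membrane anchor pathway, had 8.51 to 16.8 CPM against 8.06, 0.321, 8.42 and 1.51 CPM in female 3, female 1, female 2 and male 3. Focad had 10.9 to 18.6 CPM against 8.43, 1.61, 6.69 and 1.26 CPM. Dpep1, a membrane dipeptidase, had 8.62 to 20.3 CPM against 6.85, 0.642, 7.45 and 3.02 CPM. In all 3 the lowest values were those of female 1 and male 3, the matKO libraries with the lowest totals, and the remaining pair of the low side lay just under the high side. Without these shallow libraries the difference was 0.30 for Pigf and 0.75 for Focad. Cxcl14, a chemokine, had 69 CPM in female 4, 10.5, 8.25 and 6.61 CPM in the other high libraries, and 2.57 to 6.29 CPM on the low side. Cxcl14 did not meet the rule in plain CPM, with DESeq2 size factors, or without female 4.

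**Figure D3:**
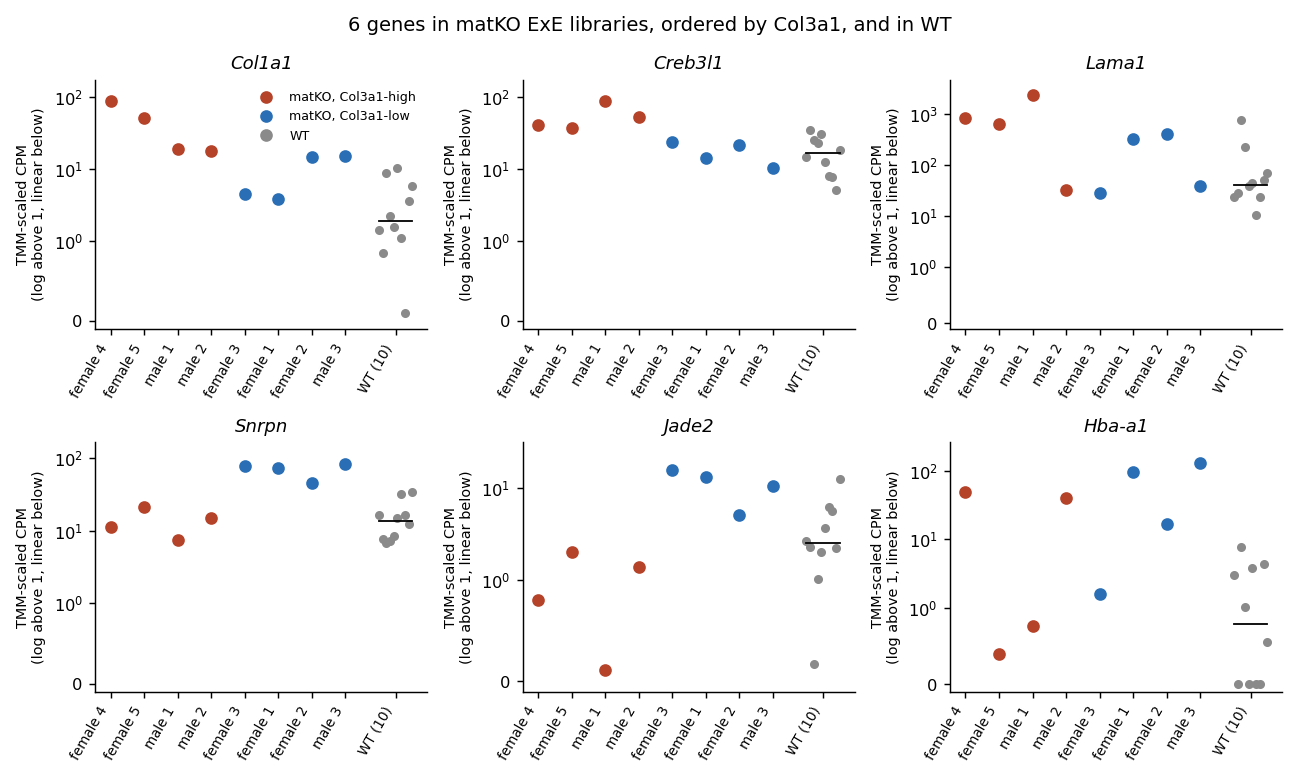
TMM-scaled CPM of 6 genes in the 8 matKO libraries ordered by Col3a1 and in the 10 WT libraries (grey points, median as a line), with axes logarithmic above 1 and linear below. Col1a1, Creb3l1, Snrpn and Jade2 part the sides; Lama1 is low in male 2 at 32.2 CPM, and Hba-a1 is high and low on both sides.

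**Figure D4:**
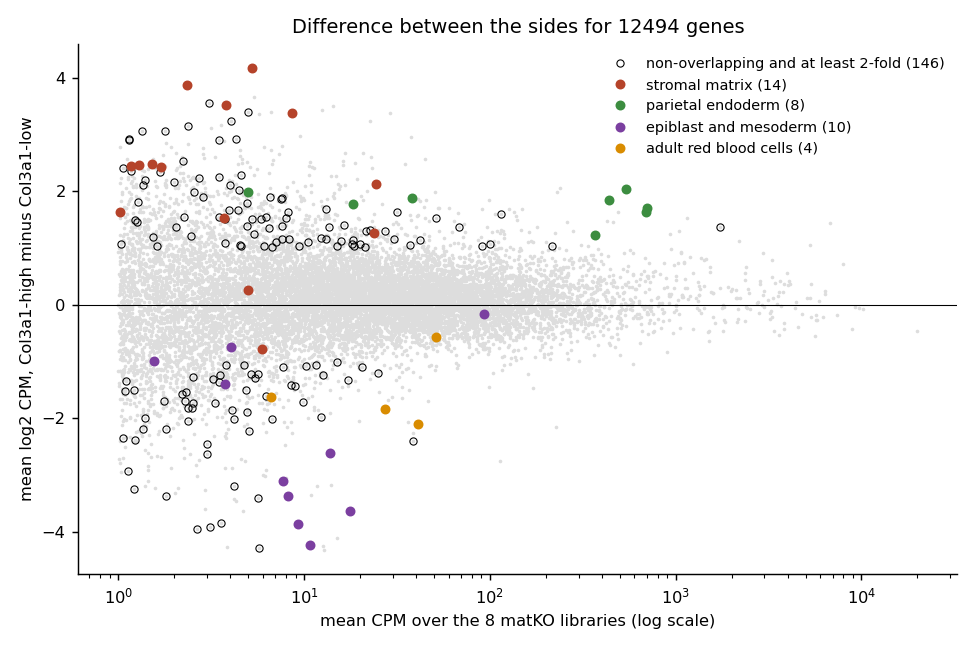
Difference in mean log2 CPM between the Col3a1-high and Col3a1-low sides (vertical) against the mean CPM over the 8 libraries (horizontal, logarithmic) for 12494 genes, with the 146 non-overlapping genes ringed and 4 lists in colour. The parietal endoderm genes all lie above 0 and the epiblast and red cell genes all below, none of them ringed, and the red cell median turns to 0.56 without the 2 shallowest libraries.

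Set against WT, the genes that parted the sides took no single position. Of the 89 higher genes, 17 had all 4 Col3a1-high libraries above the highest WT library (19.1%, against 5.31% of all genes tested), and 10 had all 4 Col3a1-low libraries below the lowest WT library (11.2%, against 2.37%). The 17 include Col1a1, Creb3l1, Cxcl14, Focad, Pigf and Gata4. Of the 57 lower genes, 7 had all 4 Col3a1-low libraries above the highest WT library (12.3%, against 3.67%), among them Snrpn, Prodh, the proline-degrading enzyme, and Ogfod2. Another 3 had all 4 Col3a1-high libraries below the lowest WT library (5.26%, against 2.55%). The WT median lay nearer the low side for 46 of the 89 (51.7%) and 31 of the 57 (54.4%), near the 48.4% of all genes. These shares are descriptions with no test. The genes were picked for a wide gap between the sides, so extreme positions are more frequent among them partly by that choice.

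Likeness of the libraries was described by correlation over all 12494 genes. Each library has fewer possible neighbours on its own side than on the other, so a nearest library across the boundary is the more frequent outcome without any structure. The count of 5 below is therefore not read as a result about the sides. For 5 of the 8 libraries, the one with the highest Pearson correlation of log2 CPM across genes came from the other side. Male 2 and female 3, which flank the boundary, were each other's nearest, with r = 0.956. Female 5 and female 2 were likewise nearest to each other across the boundary, with r = 0.912. Within a side the nearest libraries were found for female 4 and male 1, both nearest to male 2, and for male 3, nearest to female 3. The correlations are across genes, which are not independent replicates.

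The WT libraries allow the question whether the same genes move with Col3a1 where the rule was not applied. A slope of each gene on log2 Col3a1 CPM, with sex as a term, was tested over the 10 WT libraries by edgeR's quasi-likelihood test. Of 12652 genes, 0 had an adjusted p under 0.05 (0% in either direction), while the unadjusted p was under 0.05 for 380, or 3%. With DESeq2 2 genes passed, and with limma voom 0. With Col3a1 at 0 in 6 of 10 WT libraries and no higher than 1.30 CPM, the range was small, and on simulated data this fit recovered 15.7% of slopes that made a 4-fold change over that range. With 0 genes called, none of the 146 genes that parted the matKO sides could be among them. Slopes of the 9 testable stromal matrix genes had a median of 0.42, of which 5 were positive. Col1a1 had a slope of 0.79 (unadjusted p 0.047, adjusted p 0.98 by Benjamini-Hochberg). All 8 parietal endoderm slopes were positive, with a median of 0.42 and none called.

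Adult globins had the steepest slopes of any list in WT, in contrast with the matKO libraries. All 4 were positive, with a median of 2.07 per log2 unit of Col3a1, and all 4 had an unadjusted p under 0.05, but the adjusted p was 0.98 for each. Hbb-bs had 8.61, 15.1, 13.4 and 10.4 CPM in WT female 1, female 3, female 6 and male 3, the 4 WT libraries with any Col3a1 count, and at most 1.02 CPM in each of the 6 without. Across the matKO libraries the same gene ran from 0 to 133 CPM with no such order. Ranked by Pearson correlation with Col3a1 over the 10 WT libraries, the most like genes of 9605 with a mean of at least 5 CPM were Arl2bp (r = 0.892), Rbm44, Anxa3, Rab33b, Hbb-bs (r = 0.870) and Fam172a. The 10 points share depth and scaling. Of these, Anxa3, an annexin, had the widest matKO difference, at 2.42, but female 2 and male 3 of the low side exceeded male 2 of the high side.

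The division bears on the comparison of genotypes, because the 8 matKO libraries enter it together. With sex as a term, edgeR's quasi-likelihood test on all 18 libraries called 1958 genes higher in matKO and 1492 lower of 12726, that is 15.4% and 11.7%. Col3a1, whose matKO values defined the split and for which no test is given, stood at 0 to 26.4 CPM in matKO with a median of 1.15 and at 0 to 1.52 CPM in WT with a median of 0. Of 12 testable stromal matrix genes 4 were called higher and none lower, with a median of 1.54. Col1a1 rose by 2.90 (SE 0.66, adjusted p 0.0038), Col6a2 by 3.52 (SE 1.03, adjusted p 0.016) and Col1a2 by 2.7 (SE 0.94, adjusted p 0.039). Of 13 decidual genes 5 were called higher, with a median of 2.08, among them Wnt4, a decidual signal, Esr1, the oestrogen receptor, and Hand2, a stromal transcription factor. Without the 4 Col3a1-high libraries only 8 stromal and 8 decidual genes passed the filter on low values. The others passed through those libraries, so their rise and the list medians are partly set by the filter.

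The test was repeated with 4 matKO libraries at a time. The sides were chosen on Col3a1, so that for stromal genes the outcome of such a repeat is partly set by the choice, and it is given as a description of what the 18-library values rest on. With the 4 Col3a1-low libraries alone against WT, 1138 genes were called higher (8.93%) and 457 lower (3.59%) of 12746. With the 4 Col3a1-high libraries alone there were 1407 (11.1%) and 933 (7.35%) of 12692. For the stromal matrix the median was -0.09 with the low side (0 of 8 called) and 2.04 with the high side (5 of 12). For the decidual genes it was -0.42 (0 of 8) and 2.53 (5 of 12), and for the parietal endoderm -0.05 (0 of 8) and 2.30 (3 of 8). The stromal and decidual medians cover different genes, because some pass the filter only where the Col3a1-high libraries are present. Over the 8 stromal genes tested with either side the medians were -0.09 and 1.56, and over 7 such decidual genes -0.62 and 1.57. With the low side, Des was still called, at 2.74 (adjusted p 0.036), and Col1a1 was at 1.5 (adjusted p 0.17).

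Further lists are given in the order all 8 libraries, low side, high side. Visceral endoderm genes had medians of 0.30, -0.17 and 0.39, and vessel wall genes 0.09, -0.40 and 0.60. The vessel wall medians cover 5, 4 and 5 genes. Over the 4 such genes tested with either side they were -0.40 with the low side and 1.04 with the high side. Differentiated trophoblast genes had a median of 2.55 with all 8 (6 of 11 called higher), 2.68 with the low side (3 of 11) and 2.18 with the high side (5 of 11). Hand1, a transcription factor of giant cells, was called higher in each case, at 2.55, 2.63 and 2.49 (adjusted p 0.0018, 0.014 and 0.0011). Phlda2 was called as well, at 2.16, 2.68 and 1.75 (adjusted p 0.0078, 0.017 and 0.018). Female 2 took part in the first and the second of these comparisons. Adult globin genes had medians of 3.75, 4.26 and 2.96, with 3, 2 and 0 of 4 called. Endothelial genes had medians of 1.74, 1.83 and 1.5, with 3, 1 and 2 of 8 called higher and 1, 0 and 1 called lower. Pecam1 was called higher in each, at 2.50, 2.44 and 2.43 (edgeR adjusted p 0.0027, 0.025 and 0.0084).

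Epiblast and mesoderm genes gave unequal values with the 2 sides. Their median was -0.62 with all 8 libraries, with 0 of 10 higher and 2 lower. With the Col3a1-low side it was 0.23, with 2 of 11 higher and 0 lower, and with the Col3a1-high side -4.21, with 0 of 10 higher and 4 lower. Over the 10 genes tested with either side the low-side median was -0.14, so its sign depends on 1 gene. T, the mesoderm gene Brachyury, fell by 3.55 over all 8 (SE 0.80, adjusted p 0.0041) and had negative values with either side, -3.12 with the low side (adjusted p 0.059) and -4.33 with the high side (adjusted p 0.0098). Tdgf1 was at -1.92 with all 8, -0.81 with the low side and -6.74 with the high side (adjusted p 0.34, 0.77 and 0.046).

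Noncanonical imprinted genes had medians of 0.52, 0.45 and 0.64 in the same order. Gab1 rose in each, by 1.12 (SE 0.20, adjusted p 4e-04), 0.88 (adjusted p 0.027) and 1.32 (adjusted p 0.0012), and all 8 matKO libraries lay above the highest WT library, 327 CPM. Smoc1 rose by 0.87 with all 8 (adjusted p 0.014) and had 0.77 and 0.92 with 4 (adjusted p 0.12 and 0.055). Snrpn rose by 1.64 with all 8 (SE 0.47, adjusted p 0.015) and stood at 2.53 with the low side and -0.08 with the high side, and it was picked from the split. Dlk1, an imprinted growth gene, fell by 2.43 (SE 0.46, adjusted p 0.00066) and by 2.59 and 2.35 with either side (adjusted p 0.018 and 0.0055). The difference of these genotype effects between the sides was not tested.

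**Figure D5:**
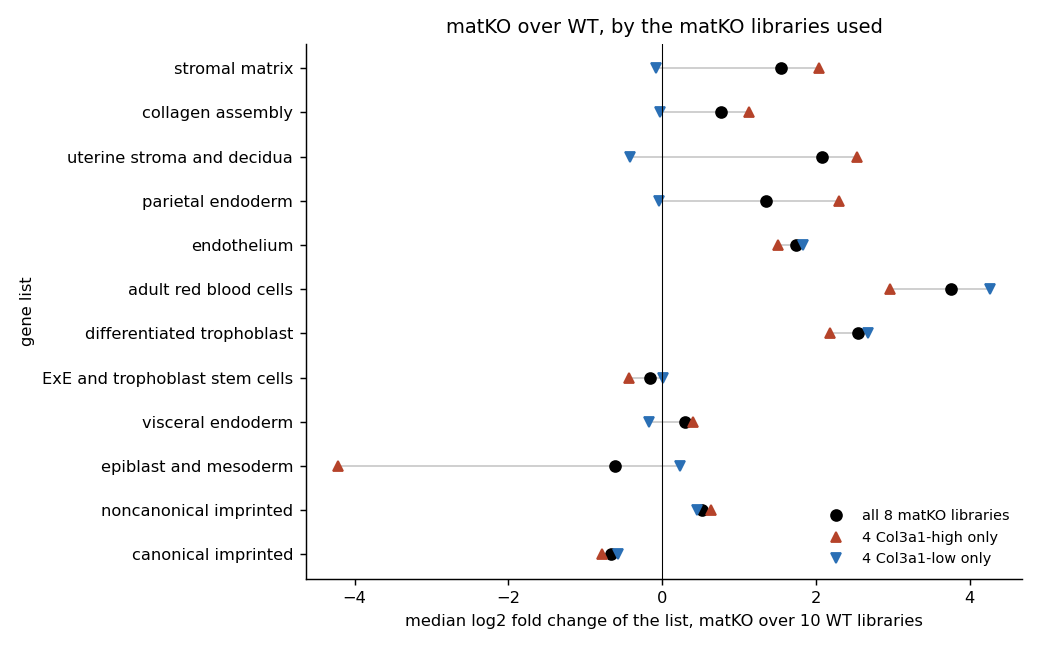
Median log2 fold change of 12 gene lists, matKO over the 10 WT libraries, with all 8 matKO libraries (black circles), the 4 Col3a1-high alone (upward triangles) and the 4 Col3a1-low alone (downward triangles). Medians are over the genes testable in each fit. Stromal, decidual, parietal endoderm and epiblast lists spread widely, from -4.21 to 0.23 for the epiblast list, while the endothelial list spans 1.5 to 1.83 and the differentiated trophoblast list 2.18 to 2.68.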

How the data were processed

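Counts of reads per gene were deposited by the authors in 1 table of 48321 genes. Trim Galore, STAR, SAMtools, featureCounts and mm10 are named in the submitters' processing notes. Versions, annotation, strand setting and the treatment of reads with several matches: not given in the sources used here. Libraries were made from polyadenylated RNA of single samples with an Accel-NGS 2S kit, per the labels' protocols. Another 4 count columns matched no labelled sample and were not used.

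Col3a1 CPM used unscaled totals. Other levels used TMM scaling and a prior count of 2, over genes averaging 1 CPM or more. The WT slope and the genotype effect were fitted with edgeR 4.0.16 (quasi-likelihood test, sex as a term, Benjamini-Hochberg adjusted p under 0.05) in R 4.3.3, with limma 3.58.1 and DESeq2 1.42.0 as alternatives. On simulated data with 4-fold changes the fits recovered 15.7% (slope) and 73.8% (genotype) of 200 changed genes. Named genes are the 10 widest differences each way among those averaging 5 CPM or more, up to 4 per list, called list members and the genes most like Col3a1; others named were chosen after their values were seen. Of 218 list genes 161 had a RefSeq promoter window (GRCm38.p6). The members, lists and rules were chosen with earlier results of these data known.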

Additional observations from a re-analysis of the deposited data

Results flagged for a closer look

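Mean log2 CPM of each of the 20 gene lists was searched in the Col3a1-high, Col3a1-low and WT libraries for 1 library far from the rest of its group (Dixon's criterion), 60 groups in all, of which 5 met it. Chance gives about 1 in 20 groups where values vary freely. The Y-linked and embryonic globin groups below do not, so the 5 are not read as an excess. Vessel wall genes stood at 1.56 in matKO female 4 against at most -0.45 in the other Col3a1-high libraries. Epiblast and mesoderm genes stood at -1.70 in matKO female 2 against at least 3.16 in the other Col3a1-low libraries. Y-linked genes stood at 2.92 in matKO male 3, the only male on the Col3a1-low side, so that the sex labels fixed this gap. Embryonic globins stood at -2.05 in matKO female 3, from the low counts of 1 library, against -2.50 in the others. That is the shared value of libraries without counts, so any count meets the criterion. Natural killer cell genes stood at -1.65 in WT female 3 against at most -2.25 in the other WT libraries.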

How the results depend on the processing

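The count of genes that part the sides, 89 higher and 57 lower, moved with most settings. It was 46 and 21 among genes averaging 5 CPM or more, 135 and 104 with no filter, 25 and 20 at 4-fold, and 556 and 216 without male 2 and female 3, the libraries next to the boundary. Leaving out 1 library gave 98 higher and 78 lower without male 1, 113 and 101 without male 3, 134 and 88 without female 1, 154 and 98 without female 5, 180 and 105 without female 4, 311 and 116 without female 3, 313 and 135 without male 2, and 359 and 391 without female 2. With fewer libraries a side, groups part more easily by construction. Without the 2 shallowest matKO libraries, an alternative added after the data were seen, it was 177 and 170, and the red cell median turned from -1.73 to 0.56. The slope on Col3a1 in WT gave 2 genes higher with DESeq2, 5 with no filter, and 0 without each library in turn; Col1a1 in place of Col3a1, also added after the data were seen, gave 0. The genotype effect, 1958 higher and 1492 lower, was 1138 and 457 without the 4 Col3a1-high libraries and 1407 and 933 without the 4 Col3a1-low. Leaving out 1 library gave 1668 to 2056 higher and 1135 to 1571 lower, with DESeq2 2235 and 1796, and with limma voom 1986 and 1624. With a replicate block it was 1494 and 1022. Deviations of same-numbered libraries correlated at -0.367 to 0.106. No pairing by number was seen, but such correlations cannot exclude one. The balance of genes parting the sides also turned, from more higher than lower to 62 and 76 with DESeq2 size factors and 359 and 391 without female 2. Several small medians changed sign too. Without the 2 shallowest libraries the endothelial median was -0.46, the myeloid -0.37, the noncanonical imprinted -0.07 and that of all genes -0.008. The median of ExE and trophoblast stem cell genes was 0.12 without male 1.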

Other observations

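Genes that lie near Snrpn and Ndn on chromosome 7, chosen after the values of that pair were seen, gave mixed values. Ube3a, a ubiquitin ligase, had 70.4, 29.7, 56 and 43.6 CPM in female 4, female 5, male 1 and male 2, and 28.5 to 61 CPM on the Col3a1-low side, a difference of 0.25. Magel2 had no count in any Col3a1-high library and 1.20, 0.642 and 3.02 CPM in female 3, female 1 and male 3, with none in female 2, below the filter on low counts.

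H19, an imprinted RNA of the placenta and embryo, had 5850, 1760, 4590 and 5690 CPM on the Col3a1-high side and 9450, 3340, 1080 and 2870 CPM in female 3, female 1, female 2 and male 3. The ranges overlapped, while matKO as a whole was higher than WT by 1.33 (SE 0.34, adjusted p 0.0066 by edgeR).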
